A study of Arabidopsis thaliana with 4 samples.

Results

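The 9 genes described here form the core of the heat shock response of Arabidopsis thaliana: the transcription factor gene HSFA2, 5 small heat shock protein genes (HSP17.4, HSP18.2, HSP17.6A, HSP17.6II and HSP22), and the large chaperone genes HSP70, HSP101 and HSP90.1. They were taken as a named list of 9 out of 27444 protein-coding genes, and the rule that selects their peaks uses position only, not a measured value. A peak was counted for a gene when its summit lay between 1 kb upstream of the annotated transcription start site (TSS) and the end of the gene. Open chromatin was mapped by ATAC-seq, which relies on the transposase Tn5 to insert adaptors where DNA is exposed, in nuclei from flowers of 4-week-old Columbia-0 plants kept in long days in a greenhouse. Wild type (WT) and the T-DNA mutant mbd9-3 gave 2 libraries each. mbd9-3 was a single T-DNA line, and neither genotype had a heat treatment in the labels. The methods of the study give the ATAC-seq tissue as inflorescences, so many cell types are averaged in each value. MBD9 binds the SWR1 complex, which puts the histone variant H2A.Z into nucleosomes, and the comparison asked whether open chromatin at these genes differed without it.

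Heat shock genes are among the most rapidly induced genes known in plants. Heat shock factors bind DNA as trimers at heat shock elements, which are runs of the unit GAA and its complement TTC in alternating orientation with 2 bases between units. At ambient temperature these genes are mostly silent, and in Arabidopsis their nucleosomes are known to carry H2A.Z that is lost on warming. HSFA2 prolongs the response, HSP101 pulls proteins out of aggregates, HSP70 and HSP90 proteins refold or hold clients, and the small heat shock proteins keep unfolded proteins soluble.

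The promoter stretches of the genes with the strongest open chromatin are shown first because called intervals in all 4 libraries overlapped them. At HSFA2 the strongest summits, 296 to 306 bp upstream of the TSS, lay outside the printed stretch, which held only weaker summits. They end at the base before the annotated TSS and run 5′ to 3′ on the strand of the gene, from the RefSeq TAIR10.1 genome. Capitals mark every GAANNTTC or TTCNNGAA, the letters of a 2-unit heat shock element, and 2 such matches that overlap form a 3-unit match, GAANNTTCNNGAA or TTCNNGAANNTTC. HSFA2 lies at chr2:11135474-11135623 (plus strand), HSP17.4 at chr3:16984868-16985067 (minus strand) and HSP22 at chr4:6370188-6370337 (plus strand).
HSFA2: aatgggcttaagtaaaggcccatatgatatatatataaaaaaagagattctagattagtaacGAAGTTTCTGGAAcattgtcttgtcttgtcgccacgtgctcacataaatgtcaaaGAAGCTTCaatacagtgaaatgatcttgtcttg
HSP17.4: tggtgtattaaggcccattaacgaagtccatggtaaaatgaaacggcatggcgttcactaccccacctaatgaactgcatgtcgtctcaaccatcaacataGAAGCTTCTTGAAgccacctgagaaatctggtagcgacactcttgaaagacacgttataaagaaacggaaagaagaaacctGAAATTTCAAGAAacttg
HSP22: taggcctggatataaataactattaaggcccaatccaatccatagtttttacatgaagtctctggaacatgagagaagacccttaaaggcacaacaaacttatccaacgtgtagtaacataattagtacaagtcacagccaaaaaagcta
The HSFA2 stretch held a 3-unit match from 88 to 76 bases before the TSS and a 2-unit match 33 to 26 bases before it. The HSP17.4 stretch held 3-unit matches at 99 to 87 and at 18 to 6 bases before the TSS. The HSP22 stretch held none.

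At HSP22 and the remaining genes most matches lay between the annotated TSS and the start codon, and short stretches around the best match are printed for that reason, with 8 bases on each side of the capitals.
HSP22: aaagatatTTCAAGAAACTTCttcattct
HSP18.2: caacaaacGAAACTTCCTGAAatgccaag
HSP70: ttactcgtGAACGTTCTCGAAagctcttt
HSP90.1: aacgaaaaGAACTTTCTGGAAttcgtttg
HSP101: aaataagcGAAAATTCcacgtgac
HSP17.6A: caagacgtTTCTCGAAcgttagag
HSP17.6II: caagacgtTTCTCGAAcaatacgg
The first 4 hold 3 units and the last 3 hold 2 units. Their positions are chr4:6370379-6370407 (plus), chr5:24062388-24062416 (plus), chr3:3993846-3993874 (minus), chr5:21352254-21352282 (plus), chr1:27940325-27940348 (minus), chr5:3884845-3884868 (minus) and chr5:3883038-3883061 (minus). HSP17.6A and HSP17.6II, which are neighbours on chromosome 5 and encode class II cytosolic small heat shock proteins, shared the first 17 of the 24 printed bases. Only HSP90.1 among these 7 had its 3-unit match upstream of the TSS, 295 to 283 bases before it. HSP90.1 has no annotated 5′ UTR, so its annotated start is its first coding base.

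All 9 genes had a peak in at least 1 library, as did 87.6% of all protein-coding genes. The genes held 61 summits in all, 20 and 15 in WT replicates 1 and 2, and 15 and 11 in mbd9-3 replicates 1 and 2. Of these summits 31 lay in the 1 kb promoter, 23 in coding exons, 6 in 5′ UTRs and 1 in a 3′ UTR. A peak was called in all 4 libraries at 6 of 9 genes, where 58.1% of all protein-coding genes had one. A promoter summit was called in all 4 libraries at 4 of 9 genes (HSFA2, HSP17.4, HSP22 and HSP17.6A), where the share of all genes was 34.3%. The set therefore split into 4 genes with an open promoter in every library, and 5 genes whose calls were weak, lay inside the gene or changed place between libraries.

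The lists held 44004 and 43962 peaks in WT and 45208 and 37609 in mbd9-3. Of these peaks, 83.4 and 92.9% in WT and 81.9 and 91.8% in mbd9-3 had a q-value under 0.05, and every listed peak was counted. Fold enrichment at a summit was relative to the background of the same library. Because each list was called separately, every peak was also given a rank percentile within its list, where 100 is the highest fold enrichment. The lists carry no read totals, so depth is given as the number of overlapping tags at a summit, solved from the fold enrichment and p-value. The shortest list, mbd9-3 replicate 2, also had the fewest of these genes with a peak, 7 against 8 or 9 elsewhere. Of all protein-coding genes, 68.3% had a peak in that library, against 73.8 to 75.6% in the others. Without mbd9-3 replicate 2, 8 of the 9 genes had a peak in each remaining library, against 6 with it. The share of all genes without that library is not given here. MBD9 itself had peaks at percentiles of 50.6 and 10.7 in WT and 59.3 and 5.49 in mbd9-3, and a list of peaks cannot check a T-DNA insertion. Of 5 floral organ genes, 3 had a peak in all 4 libraries and all 5 in at least 1.

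**Figure D1:**
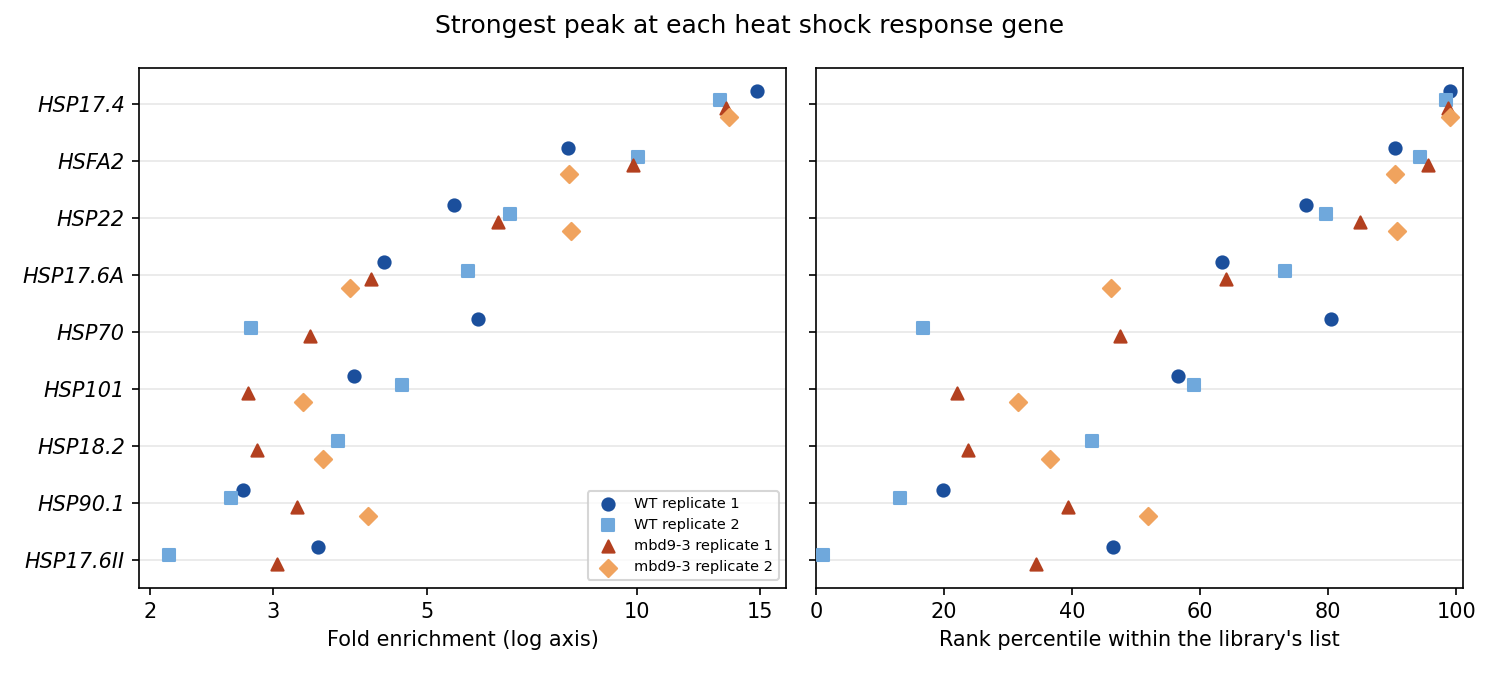
Strongest peak of each gene in each library, as fold enrichment over the library's own background (left, log axis) and as rank percentile within the library's list (right). Each symbol is 1 library and a missing symbol means that no peak was listed. HSP17.4 stood at percentiles of 98.3 to 99.0 in all 4 libraries, while HSP70 ranged from 16.7 to 80.4 over the 3 libraries with a peak.

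HSFA2 (AT2G26150, chr2:11135624-11137792, plus strand), the heat-induced factor that sustains the response, had a broad open region upstream of its TSS in every library. Its strongest peak had fold enrichments of 7.96 and 10.02 in WT and 9.88 and 7.98 in mbd9-3. These were percentiles of 90.4 and 94.3 in WT and 95.6 and 90.5 in mbd9-3. Each genotype thus had 1 library near 90 and 1 near 95, and the genotypes overlapped. The strongest summits lay 296 to 306 bp upstream of the TSS, within 10 bp of each other, and inside the neighbouring gene AT2G26140 (FTSH4), a mitochondrial protease gene whose start faces that of HSFA2 across a gap of 158 bp. An ATAC-seq peak between divergent genes cannot be divided between them. Nearer to HSFA2, every library had a further summit in the gap itself, 28 and 75 bp upstream of the TSS in WT and 69 and 74 bp in mbd9-3. These nearer summits had fold enrichments of 5.78 and 5.25 in WT and 4.27 and 5.92 in mbd9-3, from 13 to 21 tags. The percentiles were 79.1 and 67.8 in WT and 65.4 and 78.0 in mbd9-3, again without separation of the genotypes. The 3-unit match in the printed HSFA2 stretch was inside the called interval in all 4 libraries, 7 to 54 bp from the nearest summit. The mean percentile of the strongest peak was 92.3 ± 2.75 (SD, n = 2) in WT and 93.0 ± 3.66 (SD, n = 2) in mbd9-3, a difference smaller than the spread within either genotype (p = 0.667 by a two-sided exact permutation test).

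For groups of 2 there are 6 assignments of the labels, and the smallest p-value of this exact test is 0.333. No single gene could therefore pass 0.05 by it, and limma across all genes or regions was used beside it.

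HSP17.4 (AT3G46230, chr3:16984118-16984867, minus strand), which encodes a class I cytosolic small heat shock protein, had the highest peak of the 9 genes in every library. Its fold enrichment was 14.9 and 13.2 in WT and 13.4 and 13.5 in mbd9-3, at 47, 44, 42 and 41 tags. It ranked 422 and 737 in the WT lists and 590 and 394 in the mbd9-3 lists, percentiles of 99.0, 98.3, 98.7 and 99.0. The libraries differed by less than 1 percentile and the genotypes overlapped. By mean percentile, 98.8, HSP17.4 was number 324 of the 15935 genes with a peak in all 4 libraries. The promoter summits lay at 157, 148, 162 and 169 bp upstream of the TSS, all within the printed stretch. The upstream 3-unit match was inside the called interval in all 4 libraries, 55 to 76 bp from the summit and on its TSS side. The match next to the TSS was inside an interval in 1 library only. The nearest gene upstream is 975 bp away, and the peak lies in the window of no other protein-coding gene. The difference between genotypes did not pass the threshold (limma on normal scores of ranks, Benjamini-Hochberg adjusted p = 0.996 over 19546 regions).

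A second, weaker peak lay over the coding exon of HSP17.4 in all 4 libraries, with fold enrichments of 4.33 and 3.20 in WT and 3.64 and 3.17 in mbd9-3. It overlaps AT3G07365, annotated on this stretch as a noncoding gene, and ATAC-seq carries no strand to tell them apart. It was 1 of 5 regions of the 9 genes that were called in all 4 libraries. The others were the promoter regions of HSP17.4, HSFA2, HSP22 and HSP17.6A.

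HSP22 (AT4G10250, chr4:6370338-6371372, plus strand), named ATHSP22.0 in the annotation and known as a small heat shock protein of the endoplasmic reticulum, had a promoter peak in all libraries. Its fold enrichment was 5.46 and 6.57 in WT and 6.32 and 8.04 in mbd9-3. The percentiles were 76.5 and 79.7 in WT and 85.0 and 90.7 in mbd9-3. Both mbd9-3 libraries thus ranked above both WT libraries, although on the fold scale mbd9-3 replicate 1 was below WT replicate 2. The mean percentile was 78.1 ± 2.25 (SD, n = 2) in WT and 87.8 ± 3.99 (SD, n = 2) in mbd9-3, a difference of 9.76 (p = 0.333 by the exact permutation test, its smallest value). In the fit over all genes it did not pass the threshold (limma, adjusted p = 0.954), nor in the fit over regions (limma, adjusted p = 0.933). The strongest summit of each library lay 54 to 81 bp upstream of the TSS, in the 387 bp gap to the divergent gene bbx23. Weaker summits lay 112 bp upstream in WT replicate 2 and 195 bp upstream in mbd9-3 replicate 2. The 3-unit match of HSP22 lies after the TSS and was outside the called intervals in all 4 libraries, 109 to 136 bp from the nearest summit.

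HSP17.6A (AT5G12030, chr5:3883957-3884838, minus strand) had a promoter region called in all 4 libraries at middle rank. The fold enrichment of its strongest summit was 4.33 and 5.72 in WT and 4.15 and 3.87 in mbd9-3. The percentiles were 63.4 and 73.2 in WT and 64.0 and 46.0 in mbd9-3, so that WT replicate 1 and mbd9-3 replicate 1 were within 1 percentile of each other and the genotypes overlapped. The strongest summit was not at a fixed place. It lay 247 and 82 bp upstream in WT and 257 and 153 bp upstream in mbd9-3, and 3 of the 4 were inside the divergent neighbour AT5G12040, whose start is 110 bp away. The 2-unit match of the printed stretch, 22 to 15 bases before the TSS, was inside a called interval in 3 libraries.

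HSP17.6II (AT5G12020, chr5:3882231-3883111, minus strand), the tandem neighbour of HSP17.6A, had no promoter summit in any library. Its only peak lay in the coding exon, 407 and 430 bp after the TSS in WT and 455 bp after it in mbd9-3 replicate 1, with none in mbd9-3 replicate 2. Fold enrichments were 3.49, 2.13 and 3.04 from 10, 6 and 8 tags, at percentiles of 46.3, 1.04 and 34.3. The value in WT replicate 2 was close to the bottom of its list. Its −log10 q-value was 0.781, short of a q-value under 0.05. The neighbours therefore carried the same 17 bases before their coding regions, and a promoter region was called in 4 libraries at one and in none at the other.

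HSP18.2 (AT5G59720, chr5:24062323-24063300, plus strand), a class I cytosolic small heat shock protein gene, had 1 peak at the TSS in 3 libraries and none in WT replicate 1. Its summits were 5, 0 and 15 bp after the annotated TSS, so they count as 5′ UTR and not as promoter. The fold enrichment was 3.73 in WT replicate 2 and 2.84 and 3.54 in mbd9-3, at percentiles of 43.1, 23.8 and 36.6. The 3-unit match, 73 to 85 bases after the TSS, was inside the interval in 2 libraries.

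**Figure D2:**
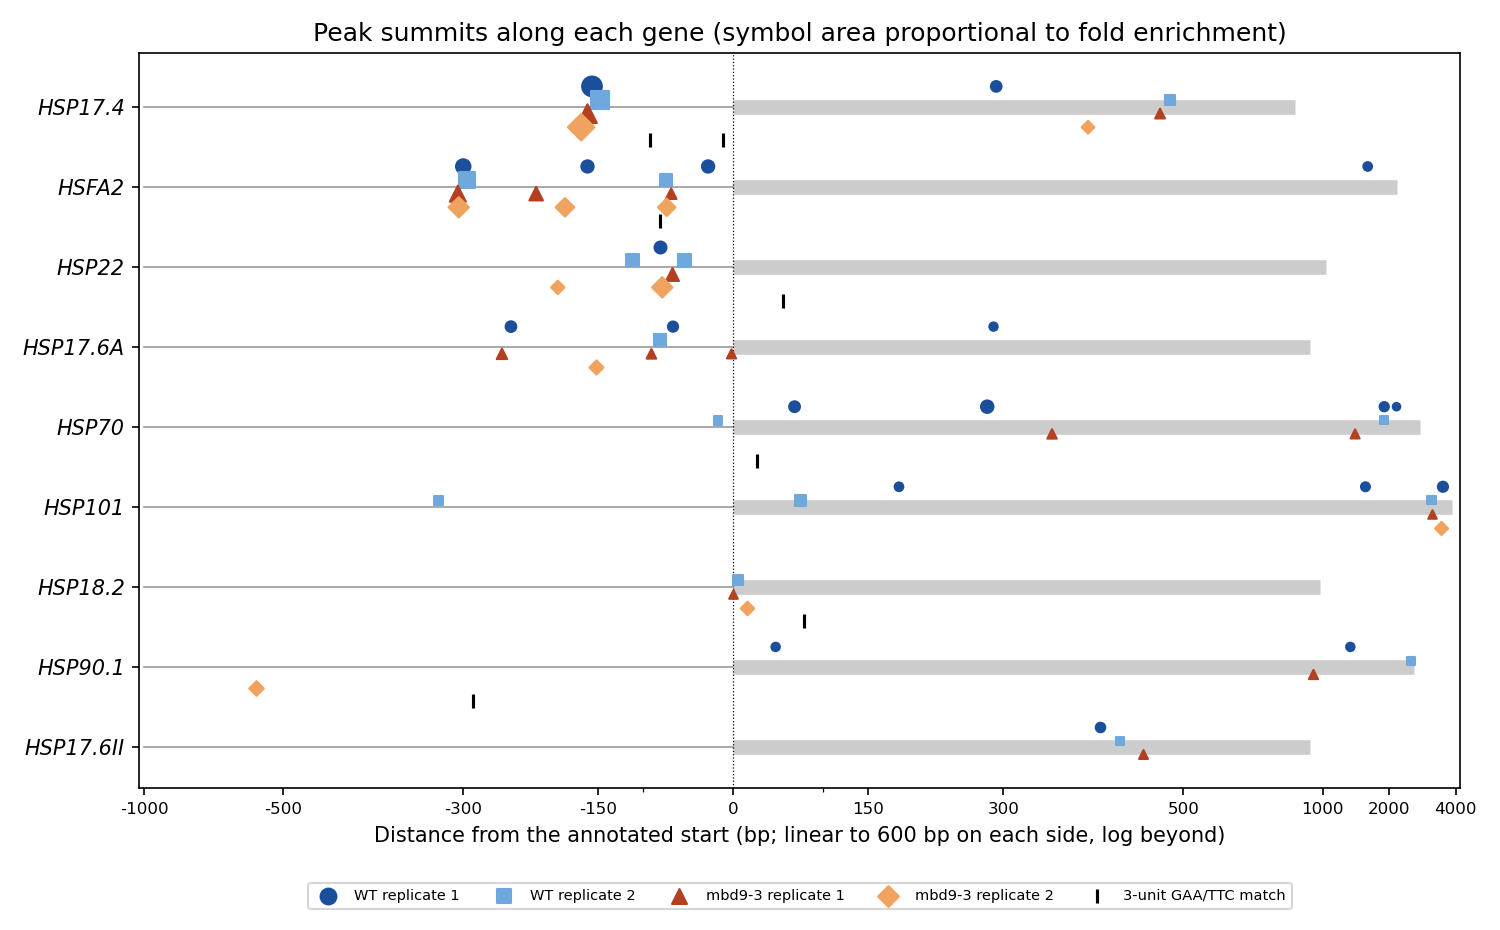
Every summit at the 9 genes by distance from the annotated TSS in bp (upstream to the left; grey bars are the genes; linear near the TSS and log farther out, as the axis states), with symbol area proportional to fold enrichment and 1 symbol type per library. Black ticks mark 3-unit GAA/TTC matches. At HSP17.4, HSFA2, HSP22 and HSP17.6A the strongest summit of each of the 4 libraries lies upstream, and at HSP90.1 the 5 summits lie in 5 different places.

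HSP70 (AT3G12580, chr3:3991117-3993886, minus strand), a heat-inducible cytosolic HSP70, had 4 summits in WT replicate 1, 2 in WT replicate 2, 2 in mbd9-3 replicate 1 and none in mbd9-3 replicate 2. The strongest had fold enrichments of 5.91 and 2.80 in WT and 3.40 in mbd9-3 replicate 1. The percentiles were 80.4, 16.7 and 47.5, so the WT libraries lay on both sides of the only mbd9-3 value. The 5.91-fold peak was over the first part of the coding sequence, 282 bp after the TSS. The only promoter summit, 17 bp upstream, was in WT replicate 2 at 8 tags. The 3-unit match of the printed HSP70 stretch was inside a called interval in that library alone.

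HSP101 (AT1G74310, chr1:27936508-27940369, minus strand), the ClpB-type disaggregase required for acquired thermotolerance, had peaks in all 4 libraries but no shared place. The strongest had fold enrichments of 3.93 and 4.60 in WT and 2.76 and 3.31 in mbd9-3, at percentiles of 56.5 and 59.1 in WT and 22.0 and 31.5 in mbd9-3. Both WT libraries were above both mbd9-3 libraries. The mean percentile was 57.8 ± 1.86 (SD, n = 2) in WT and 26.7 ± 6.73 (SD, n = 2) in mbd9-3, a difference of -31.1 (p = 0.333 by the exact permutation test). It did not pass the threshold in the fit over all genes (limma, adjusted p = 0.945). The summits compared were 3507 and 75 bp after the TSS in WT and 3139 and 3430 bp after it in mbd9-3, so the 4 values describe different sites up to 3432 bp apart. Near the TSS, a peak in the 5′ UTR was called in both WT libraries, at 2.88 and 4.60-fold, and in neither mbd9-3 library. These calls rested on 9 tags in WT replicate 1 and 16 in WT replicate 2. Their summits lay 184 and 75 bp after the TSS. The share of all regions called in both WT libraries alone is not given here. Whether this site differed between genotypes was not tested. A promoter summit was listed in WT replicate 2 alone, 328 bp upstream, inside the divergent neighbour AT1G74320.

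HSP90.1 (AT5G52640, chr5:21352557-21355147, plus strand), the heat-inducible cytosolic HSP90, had the lowest mean percentile of the 6 genes with peaks in all 4 libraries. Its 5 summits lay in 5 regions, each called in a single library. The strongest had fold enrichments of 2.72 and 2.61 in WT and 3.26 and 4.10 in mbd9-3, from 9 to 13 tags. The percentiles were 19.8 and 13.1 in WT and 39.3 and 51.8 in mbd9-3. Both mbd9-3 libraries were higher, by 29.1 percentiles between the means (p = 0.333 by the exact permutation test). The fit over all genes gave an unadjusted p of 0.0204 and an adjusted p of 0.945 (limma). The mbd9-3 replicate 2 summit lay 530 bp upstream, inside the neighbouring gene MEF1, and the other 3 lay in coding exons 47, 2523 and 910 bp after the TSS. The higher ranks in mbd9-3 were thus not a change at 1 site. The 3-unit match upstream of HSP90.1 was in no called interval.

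A peak with a −log10 q-value of at least 5 was listed in all 4 libraries at 3 of 9 genes (HSP17.4, HSFA2 and HSP22), where 28.8% of all genes had one, and in 3 libraries at HSP17.6A. HSP70 and HSP101 reached it in 1 library each. HSP90.1, HSP17.6II and HSP18.2 reached it in none. In order of mean percentile over the 4 libraries the 6 genes with a peak in each were HSP17.4 (98.8), HSFA2 (92.7), HSP22 (83.0), HSP17.6A (61.7), HSP101 (42.3) and HSP90.1 (31.0). HSP17.4 did not overlap HSFA2. HSFA2 and HSP22 overlapped, since the highest HSP22 value (90.7, mbd9-3 replicate 2) was above HSFA2 in WT replicate 1 (90.4) and in mbd9-3 replicate 2 itself (90.5). HSP22 did not overlap HSP17.6A. HSP17.6A overlapped HSP101, and HSP101 overlapped HSP90.1.

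The strongest peak lay in the same region in all 4 libraries at 4 of these 6 genes, where the share of all genes with a peak in each library was 72.5%. At the same 4 genes it lay upstream of the TSS in every library, against 43.9% of the 15935 genes. The peaks of the 9 genes fell into 24 regions. Of these, 5 were called in all 4 libraries, 2 in 3, 6 in 2 and 11 in a single library. Over all 64218 regions, 30.4% were called in all 4 libraries and 45.4% in 1.

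Between genotypes, both WT libraries were above both mbd9-3 libraries at 1 gene (HSP101), where 22.1% of genes showed that order, and below them at 2 genes (HSP90.1 and HSP22), where 12.0% did. The counts rest on 6 genes and were not tested against these shares. The median percentile of the 6 genes was taken in each library, and the mean of these medians differed by -0.373 (mbd9-3 minus WT). The differences of single genes ran from -31.1 (HSP101) to 29.1 (HSP90.1). None of the 6 genes passed limma, and HSP70, HSP17.6II and HSP18.2, which lacked a peak in 1 library each, were not fitted. Over all features it called 0 of 19546 regions and 0 of 15935 genes (0% in each), with 1046 regions and 799 genes at an unadjusted p under 0.05.

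The letters of heat shock elements were counted in the same way at every gene. In the 250 bases before the annotated TSS, 2 of 9 genes had a 3-unit match, against 0.386% of all 27444 genes, and 3 of 9 had a 2-unit match, against 16.1%. In the 500 bases before the start codon, 6 of 9 had a 3-unit match, against 1.20% of all genes, and all 9 had a 2-unit match, against 33.9%. In the 300 bases before the start codon, 5 of 9 had a 3-unit match, against 0.747% of all genes. A 2-unit match was there at 8 of 9, against 22.8%. The start codon was used as an anchor, with these windows, after the positions at these genes had been seen. Both strands were searched, and a match is a description of letters and not a measured binding site. The same 500-base search found 3-unit matches at 1 of 16 other heat-inducible chaperone genes, 5 of 10 heat-inducible regulator and enzyme genes, 3 of 6 constitutive chaperone genes and 0 of 4 HSFA1 genes. For these lists in the same order, 2-unit matches in the 500 bases were at 14 of 16, 8 of 10, 3 of 6 and 3 of 4 genes. At the 9 genes matches lay both inside and outside the called intervals. A 3-unit match lay inside an interval in all 4 libraries at HSFA2 and at HSP17.4 (the farther of its matches from the TSS), in 2 libraries at HSP18.2, in 1 at HSP70 and in none at HSP22 and HSP90.1.

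Other genes of the heat response were compared by the same measure. Among 16 other heat-inducible chaperone genes, 11 had a peak in all 4 libraries and 10 a promoter summit in all 4. Among those 11, HSP17.6B (96.5), HSA32 (88.3) and CLPB4 (81.5) had the highest mean percentiles, and HSP70T-2 (23.8), HSP17.8 (51.8) and HSP23.5 (56.7) the lowest. Among 10 regulator and enzyme genes, 8 had a peak in all 4 libraries. Among those 8, DREB2A (95.3), MBF1C (93.3) and HSFA3 (84.1) were highest, and HSFA7B (78.2), HSFB2A (80.6) and HSFB2B (82.7) lowest. These 8 genes thus spanned 78.2 to 95.3 and the 11 chaperone genes 23.8 to 96.5. Genes that lacked a peak in at least 1 library were not ranked.

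Genes that work without heat had peaks as well. Of 6 constitutive cytosolic chaperone genes, 5 had a peak in all 4 libraries, with HSC70-3 (73.6), HSC70-1 (72.1) and HSC70-2 (71.3) highest and HSP90.3 (53.6) and HSP90.2 (62.1) lowest. All 4 genes of the HSFA1 factors, which start the response, had one, at HSFA1D (84.7), HSFA1E (80.3), HSFA1B (70.5) and HSFA1A (38.4). The median over genes with a peak in all 4 libraries was 72.3 for the 9-gene set, 69.3 for the other inducible chaperones, 84.0 for the regulators and enzymes, 71.3 for the constitutive chaperones and 75.4 for HSFA1. Over all genes it was 73.2. The median of the 6 genes of the set with a peak in all 4 libraries was thus close to that of all such genes. These 6 genes lay from 31.0 to 98.8. HSP70 (48.2), HSP18.2 (34.5) and HSP17.6II (27.2), averaged over fewer libraries, were left out. Within each library, the members with a peak had medians of 70.0 and 59.1 in WT and 47.5 and 51.8 in mbd9-3. All genes with a peak had 67.1 and 69.6 in WT and 66.7 and 65.6 in mbd9-3. The member medians cover 8 and 9 genes in WT and 9 and 7 in mbd9-3, so they are not over the same genes. Over the 6 genes with a peak in all 4 libraries, the medians differed by -0.373 (mbd9-3 minus WT). None of the 28 of these 36 genes that could be fitted passed limma (0% of all genes did). The other 8 lacked a peak in at least 1 library, and no gene lacked a peak in every library.

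**Figure D3:**
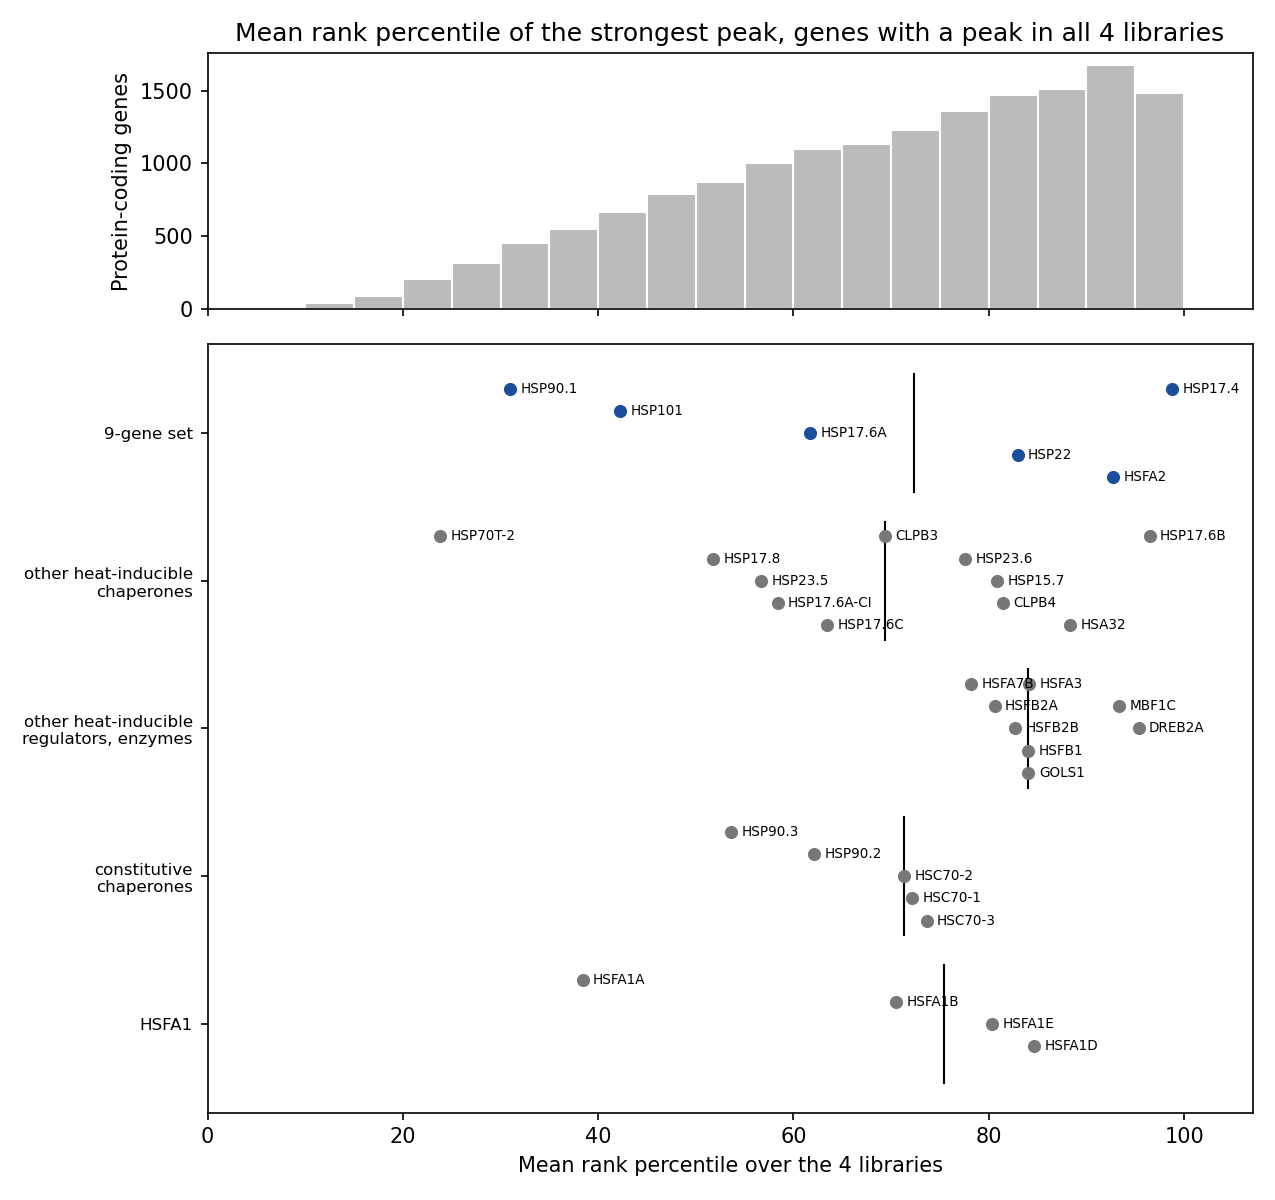
Mean rank percentile of the strongest peak over the 4 libraries, for genes with a peak in each. The grey histogram counts all such protein-coding genes, the points below are named genes of 5 lists spread vertically for legibility, and vertical lines are list medians. The 6 genes of the 9-gene set with a peak in each library run from HSP90.1 at 31.0 to HSP17.4 at 98.8.

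The genes most like HSP17.4 in percentile over the 4 libraries were AT3G27680 and LHCB2.3, which share a summit, and CAND1. Their mean absolute differences from HSP17.4 were 0.0815, 0.0815 and 0.133 percentiles. The likeness is over 4 values only.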

How the data were processed

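ATAC-seq peak lists of 4 libraries (2 WT, 2 mbd9-3, grouped by sample title) were used. The methods of the study describe trimming with trim_galore, mapping to TAIR10 with only uniquely matching reads kept, and removal by SAMtools of duplicates and of chloroplast and mitochondrial reads. The peak caller, and any shift for Tn5, are not given in the sources used here. The lists were called per library, without a control, so depth and background change which weak sites were called. The authors deposited fold enrichment as a ratio to a background of the same library, −log10 p-values and −log10 q-values. The deposited score, which repeats the p-value, and the summit offset stand beside them; only the offset was used. The study calls the replicates biological, and the labels do not say how they were separated. The p-values therefore refer to differences between these libraries only, and those of limma also draw on the variance of all features fitted.

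TAIR10.1 gene models were used, since its 5 nuclear chromosomes equal those of TAIR10. Of several summits, the one with the highest fold enrichment stood for a gene. Rank percentile was 100 for the top of a list, with mean ranks for ties. Peaks sharing at least 1 bp were merged into regions. limma 3.58.1 in R 4.3.3 was fitted to normal scores of ranks with Benjamini-Hochberg adjustment (threshold 0.05). The fit was also run on simulated complete values with independent noise. Those values are unlike these lists, so that run does not show which changes could be found here. Tag numbers were solved from fold enrichment and p-value as a Poisson tail. Everything else ran in Python 3.11.15 with biopython 1.88, matplotlib 3.10.9, numpy 2.4.6, scipy 1.17.1 and pandas 2.3.3. Coordinates are 1-based.

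All 9 genes are named. Of other lists, the 3 highest and 3 lowest genes by mean percentile and any gene without a peak are named, with the 3 genes most like the highest member. The 9-gene set and the other lists were named by known function, with earlier results of these data known. Alternatives were stricter q-values, equal list lengths, other ranks and windows, the replicate number as a block, and each library left out in turn.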

Additional observations from a re-analysis of the deposited data

How the results depend on the processing

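Without 1 library at a time, HSFA2's difference between genotypes (0.703 percentiles, mbd9-3 minus WT) ran from -1.89 to 3.29, that of HSP17.4 (0.142) from -0.217 to 0.501, that of HSP70 (-1.03) from -32.9 to 30.8 and that of HSP17.6II (10.6) from -12.0 to 33.3. The sign changed without WT replicate 1 or mbd9-3 replicate 1 at HSFA2, without WT replicate 1 at HSP70, and without WT replicate 2 at HSP17.4 and HSP17.6II. HSFA2 also reversed when ranked by −log10 p (-0.0493) or −log10 q (-0.0499), and HSP17.4 at −log10 q of at least 5 (-0.158). HSP17.6II reversed at a q-value under 0.05 (-15.9), with 37609 top peaks per list (-16.2) and with a window from 2 kb upstream (-13.3), which takes in the HSP17.6A promoter. The difference in library medians (-0.373, 6 genes) became 11.9 with equal list lengths (5 genes) and 9.66 with a window from 500 bp upstream (5 genes). It was -15.1 from 2 kb upstream (8 genes) and 5.23 with promoters only (4 genes). Without 1 library it ran from -15.3 (without WT replicate 1, 7 genes) to 2.87 (without WT replicate 2, 6 genes). It was -12.3 without mbd9-3 replicate 2 (8 genes). The genes compared thus changed with the setting. The 3 of 6 genes without overlap became 0 of 3 at −log10 q of at least 5 and 1 of 4 with promoters only. They were 6 of 7 without WT replicate 1 and 5 of 6 without WT replicate 2. Without mbd9-3 replicate 1 or 2 they were 4 of 6 and 4 of 8. Leaving out 1 library sets 2 against 1, which separates more easily by order alone. These counts therefore cannot be set beside the main count. Shares over all genes in these settings are not given here. Genes with a peak in all libraries numbered 6, 3 at −log10 q of at least 5, and 6 to 8 without 1 library (8 without mbd9-3 replicate 2). Apart from the shift of HSP17.6II with the window, the causes of these shifts, the change in genes compared among them, were not tested. limma called 0 regions in every alternative fit (945 to 1635 at an unadjusted p under 0.05, or 506 among the fewer regions at −log10 q of at least 5). With the replicate number as a block it called 0 regions, 1362 at an unadjusted p under 0.05. Same-numbered libraries correlated at 0.114 in their deviations, and libraries of unlike number at -0.114. With 2 libraries a genotype these are mirror images of a single value. The numbers are not stated to pair the libraries. HSP101, HSP90.1, HSP22, HSP17.6A and HSP18.2 kept their direction in every alternative that gave a value. At HSP101, HSP90.1, HSP22 and HSP18.2 every value of 1 genotype lay above every value of the other. Leaving out 1 library could therefore not reverse them. At HSP22 and HSP17.6A the other windows used the same peak and returned the same difference. At −log10 q of at least 5, HSP22 went from 9.76 to 19.7 and HSP17.6A from -13.3 to -23.8. The HSP17.6A difference was -22.3 without mbd9-3 replicate 1, -4.28 without mbd9-3 replicate 2 and -8.40 without WT replicate 2. HSP18.2 (-12.9) was -19.9 at a q-value under 0.05, -6.51 without mbd9-3 replicate 1 and -19.4 without mbd9-3 replicate 2. Further, 4 genes kept a promoter summit in all libraries except at −log10 q of at least 5, where 3 did. The peaks of HSP90.1, HSP17.6II and HSP18.2 rest on 6 to 15 tags.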
